A study of Rattus norvegicus with 2 samples.

Results

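The 9 genes described here encode the neuropilins (Nrp1 and Nrp2), vascular endothelial growth factors (Vegfa, Vegfb and Vegfc) and their receptor tyrosine kinases (Flt1 and Kdr), the co-receptor endoglin (Eng) and the peptide adrenomedullin (Adm). They are 9 of the 14217 genes with a probe set annotated to a single gene on a rat Affymetrix expression array. The set was chosen by gene family and on log2 ratios already seen in these arrays, in which Nrp1, Eng and Adm stood high. Their ratios are therefore given as a description, with no test. RNA was hybridised to 2 arrays, 1 per group. Both samples came from AT6.1, an established rat prostate cancer cell line. The first was from clone 7, transfected with the pcDNA3 vector with an Ndrg-1 insert (the N-myc downstream regulated gene), and the second from clone 9, transfected with pcDNA3 without an insert. Culture was in RPMI with fetal calf serum at 10% and G418, which selects for the vector, at 0.3 mg/mL. Each group is 1 clone and 1 array, so clone, culture, array and insert cannot be told apart, and no p-value or spread between samples exists.

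Vascular endothelial growth factors (VEGFs) are secreted proteins that drive the growth of blood and lymph vessels through the receptor tyrosine kinases FLT1, KDR and FLT4. Neuropilins are co-receptors with short cytoplasmic tails that bind both VEGFs and class 3 semaphorins, acting with plexins for semaphorins, and many tumour cells carry them. Endoglin is a co-receptor for ligands of the TGF-beta and BMP family and is abundant on proliferating endothelium, and adrenomedullin is a vasodilator and angiogenic peptide whose gene, like Vegfa, is known to respond to hypoxia.

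Nrp1, Eng and Adm were each more than 2-fold higher in the Ndrg-1 clone, while Nrp2, Vegfa and Vegfb differed by less than 2-fold, and Vegfc, Flt1 and Kdr were too dim to compare. Of the 15 probe sets of the 9 genes, 9 passed the floor in 1 or both arrays and 6 in neither. The floor is the median signal over both arrays of the probe sets that are not controls, 31.0, after the rescaling, and lower signals were raised to it before the log2 step. A gene at the floor in 1 array therefore has only a bound. Counting by gene (the brightest probe set), 3 of the 6 measured members were at least 2-fold higher and 0 were lower. Across the array, 149 of 9182 measured genes (1.62%) passed 2-fold upward and 138 (1.5%) passed it downward. The members' count is not read against these shares, because these same ratios chose the genes.

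**Figure D1:**
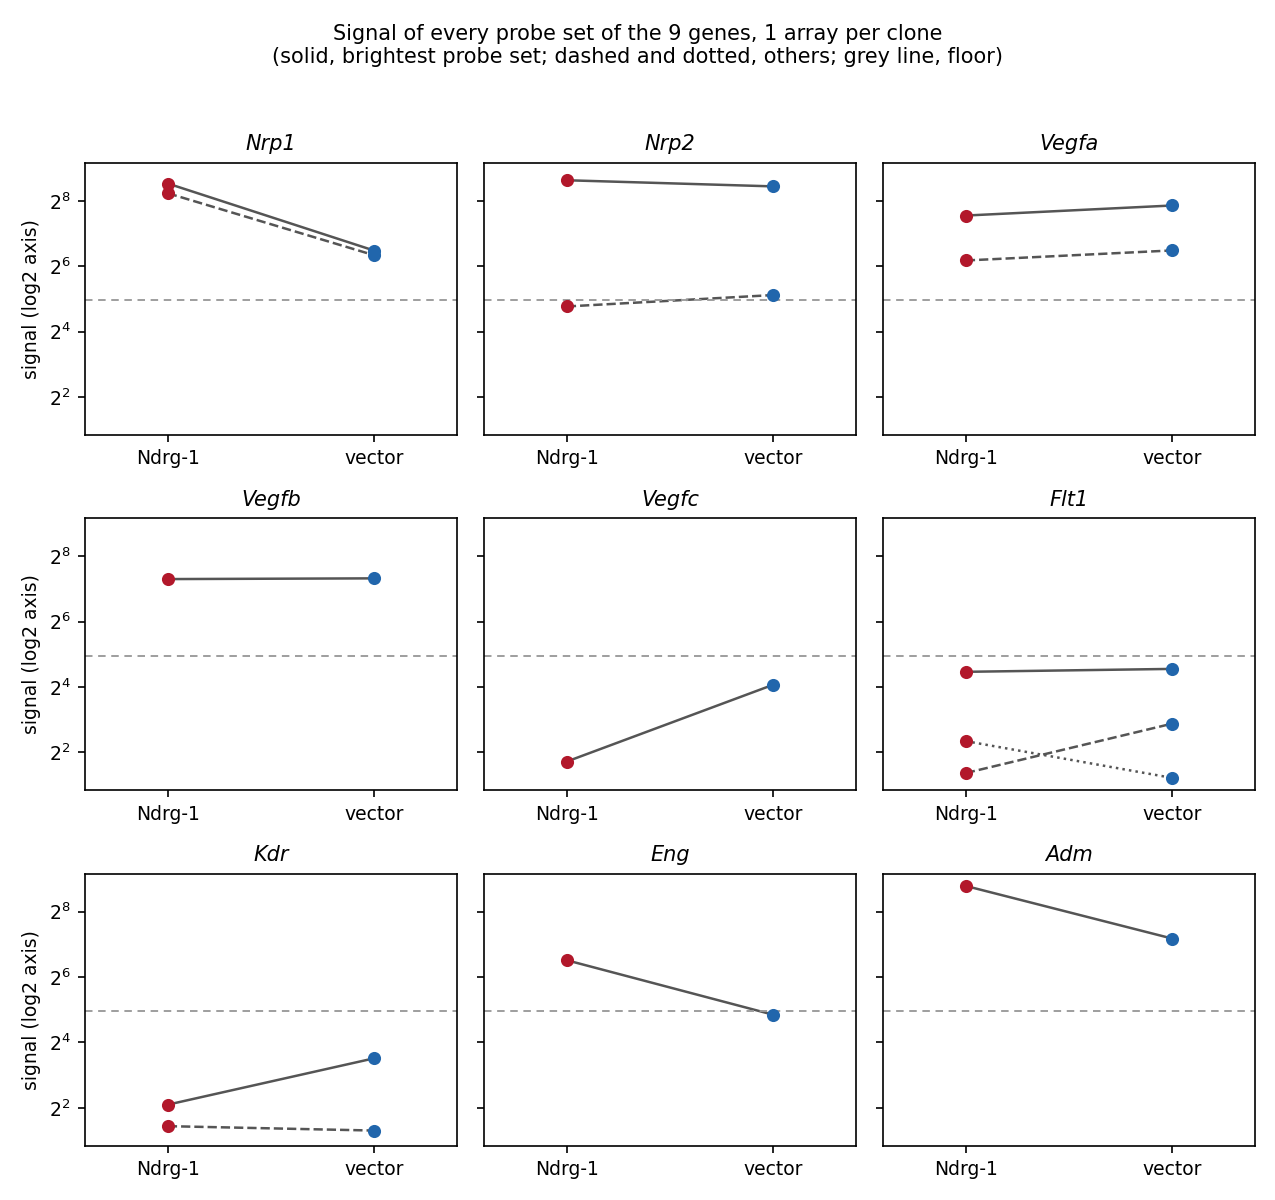
Signal (log2 axis) of all 15 probe sets of the 9 genes in Ndrg-1 cells (red, left) and vector cells (blue, right); lines join the same probe set and the dashed grey line is the floor of 31.0. Nrp1, Eng and Adm slope down towards the vector side on every probe set they have, and all probe sets of Vegfc, Flt1 and Kdr lie under the floor.

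With control probe sets included and before rescaling, the arrays had median signals of 31.1 (Ndrg-1) and 31.2 (vector), and the Pearson correlation of their log2 signals, taken over probe sets that passed the floor in each, was r = 0.972. The probe sets for rat Ndrg1 were below 2-fold. The labels give neither the species nor the extent of the insert, so these probe sets may not read it and do not check the label. Ndrg1, which is induced by stress and differentiation, had signals of 1353 in Ndrg-1 cells and 1066 in vector cells on its brighter probe set (log2 ratio 0.34), and 154 in Ndrg-1 cells and 182 in vector cells on its dimmer one (-0.24). The only error the table holds is the disagreement between probe sets of 1 gene, with an SD of 0.23 on the log2 ratio (5336 probe sets of 2296 genes), and it leaves out variation between clones, cultures and arrays. The 18 hybridisation spikes had a median log2 ratio of -0.54 and the 27 poly-A spikes one of 0.20. All ratios here are relative to the median gene. With the hybridisation spikes as the scale, the counts past 2-fold became 732 higher and 43 lower; with the poly-A spikes they became 102 higher and 232 lower.

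Nrp1 had the largest ratio among the members measured in both arrays. Its brighter probe set (1373577_at) gave a signal of 370 in Ndrg-1 cells and 89.2 in vector cells, 4.14-fold higher in the Ndrg-1 clone (log2 ratio 2.05). The second probe set (1370570_at) read 301 in Ndrg-1 cells and 80.8 in vector cells, 3.72-fold higher (log2 ratio 1.90). Both probe sets were above the floor in both arrays, and their ratios differed by less than the SD between probe sets of a gene. Among the 8552 genes above the floor in both arrays, the ratio of Nrp1 held rank 12 from the top, and 26 of the 9182 measured genes (0.283%) were at least 4-fold higher. In RNA pooled from many cells, more cells with a transcript and more transcript per cell cannot be told apart.

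Nrp2, the paralog that also binds semaphorins and VEGF-C, did not follow Nrp1. Its brighter probe set read 396 in Ndrg-1 cells and 348 in vector cells, a log2 ratio of 0.19 that turned to -0.01 when scaled to the poly-A spikes. The dimmer probe set read 27.3 in Ndrg-1 cells, under the floor, and 34.8 in vector cells, just above it, with a log2 ratio of -0.16 or lower. The 2 probe sets of Nrp2 therefore lay on opposite sides of 0. The log2 ratio of Nrp1 exceeded that of Nrp2 by 1.86, and this difference, in which a single scaling factor cancels, ranged from 0.92 to 1.96 over all settings tried. The lowest value came from a floor raised to the 75th percentile of all signals, where the vector signal of Nrp1 was itself at the floor.

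The measured partners of the neuropilins lay mostly below 0, several by less than the SD between probe sets of a gene. Their median turned to 0.27 when scaled to the hybridisation spikes. Of 21 class 3 semaphorins, plexins and neuropilin-binding proteins on the array, 10 were measured, 2 above 0 and 8 below (median log2 ratio -0.24, against 0.0029 for all measured genes). One was at least 2-fold higher. This was Sema3b, a secreted semaphorin, with 82.0 in Ndrg-1 cells and 33.7 in vector cells (2.43-fold higher). Its log2 ratio of 1.28 was 0.98 with a pseudocount of 16 in place of the floor, and it passed the 75th-percentile floor in neither array. Sema3a, the classical neuropilin-1 ligand, went the other way. It read 8.79 in Ndrg-1 cells, under the floor, and 59.7 in vector cells (log2 ratio -0.94 or lower). With a 25th-percentile floor the list held 2 genes at least 2-fold higher and 2 lower, where all genes gave 444 higher and 463 lower. The plexin Plxna3, a signal-transducing partner of the neuropilins, was at -0.76 with a second probe set at -0.67, and the abundant ligand Sema3c was at -0.07. Gipc1, whose PDZ domain binds the tail of neuropilin-1, was at -0.21, and Plxna1 at -0.05. The ratios of Sema3c, Gipc1 and Plxna1 were smaller than the SD between probe sets of a gene (0.23). List genes that did not reach 2-fold, here and below, are named as the extremes of their list, by rule, or for their role, chosen after their values were seen.

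The VEGF ligands measured were close to level between the clones. Vegfa, the main angiogenic ligand, read 187 in Ndrg-1 cells and 232 in vector cells on its brighter probe set. The dimmer one, of the kind designed to read several transcripts of 1 gene (1370081_a_at), had 72.3 in Ndrg-1 cells and 89.5 in vector cells. Both gave a log2 ratio of -0.31, less than 2 SD of the disagreement between probe sets (0.46), which turned to 0.24 for the brighter one when scaled to the hybridisation spikes. Vegfb, a ligand of FLT1, had 158 in Ndrg-1 cells and 160 in vector cells (log2 ratio -0.02, or 0.52 with that scaling). Its single probe set placed it near the middle of all genes, with 46.5% of those above the floor in both arrays having a lower ratio. Vegfc, which acts on lymphatic endothelium through FLT4, had 3.30 in Ndrg-1 cells and 16.8 in vector cells, both under the floor. When the floor was lowered to the 25th percentile (7.66), its log2 ratio was -1.13 or lower, the 1 member that reached a 2-fold lower value in any setting tried. The other VEGF family genes on the array, Pgf, Vegfd and Flt4, had signals between 11.7 and 15.0 in both arrays on their brightest probe sets, all under the floor, as was the second Pgf probe set.

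The VEGF receptor tyrosine kinases were not detected above the floor in either clone. Flt1, which binds VEGF-A and VEGF-B, had 3 probe sets with signals of 22.1, 5.08 and 2.59 in Ndrg-1 cells, against 23.5, 2.33 and 7.37 in vector cells. Kdr, the main signalling receptor for VEGF-A, had 4.28 and 2.71 in Ndrg-1 cells, against 11.4 and 2.47 in vector cells. No fold is given where both arrays are under the floor, and the 3 probe sets of Flt1 did not order the arrays the same way. Of 26 genes that act below these receptors, such as kinases and adaptors shared with other pathways, 20 were measured and 0 reached 2-fold in either direction. Their median log2 ratio was -0.13, with 8 above 0 and 12 below, and it turned to 0.42 with the hybridisation spikes as the scale. The lowest were the focal adhesion adaptor Pxn (-0.58) and the phospholipase Plcg1 (-0.42), and Nos3, the endothelial nitric oxide synthase, was under the floor in both arrays.

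**Figure D2:**
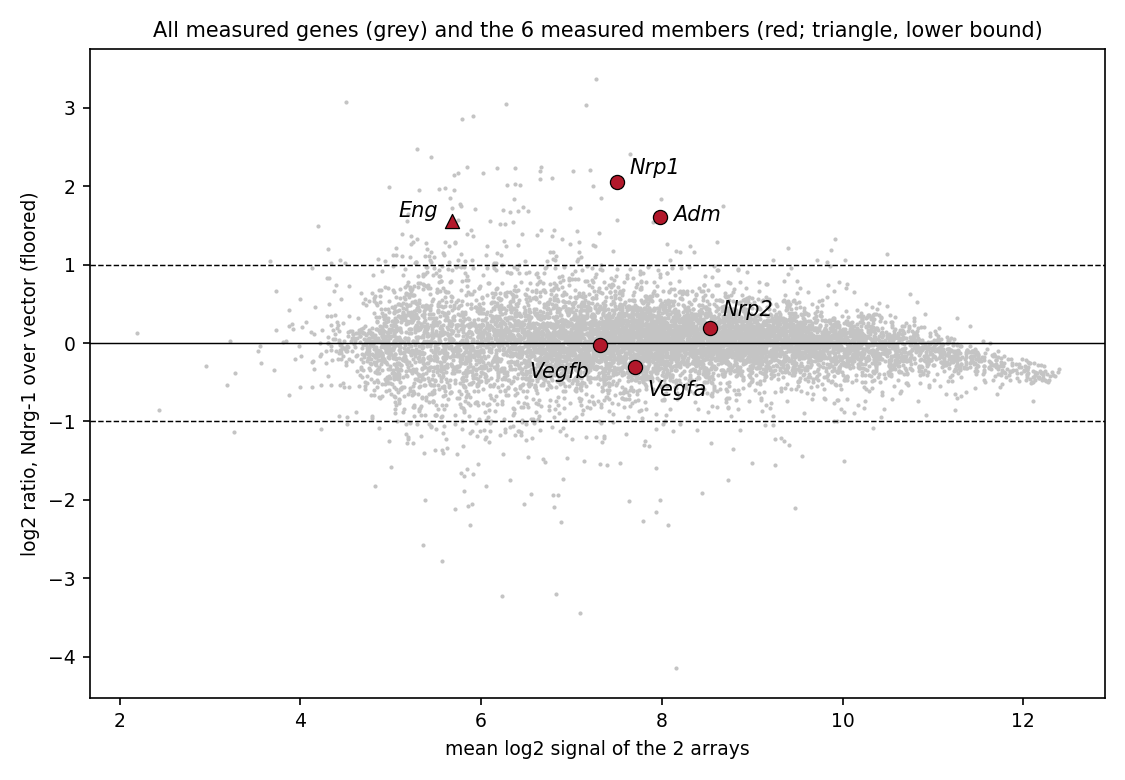
Log2 ratio of Ndrg-1 over vector (y) against mean log2 signal (x) for the 9182 measured genes (grey) and the 6 measured members (red); dashed lines mark 2-fold and the triangle marks a lower bound. Nrp1, Adm and Eng lie above the upper line, and Nrp2, Vegfb and Vegfa lie between the lines.

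Endoglin passed the floor in Ndrg-1 cells alone, with the vector signal just under it. The single Eng probe set (1372579_at) gave 91.4 in Ndrg-1 cells and 28.8 in vector cells, so the Ndrg-1 clone was higher by at least 2.94-fold (log2 ratio 1.56 or more). No further probe set was available to check it. Both signals were below a floor at the 75th percentile, which left no ratio. Acvrl1, the type I receptor that endoglin works with on endothelium, had 0.66 in Ndrg-1 cells and 1.05 in vector cells, both under the floor.

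In the wider TGF-beta and BMP pathway 20 of 23 genes on the array were measured, and 0 reached 2-fold in either direction (13 above 0, 7 below, median log2 ratio 0.12, or -0.08 scaled to the poly-A spikes). Scaled to the hybridisation spikes, 4 were at least 2-fold higher (732 over all genes) and the median was 0.64. The type I receptors Tgfbr1 (0.14) and Bmpr1a (0.02), the type II receptor Bmpr2 (-0.18) and the co-receptor Tgfbr3 (-0.09) were near 0. The ligand Tgfb2 was highest at 0.96, with 93.2 in Ndrg-1 cells and 47.9 in vector cells. The second probe set of Tgfb2 gave a bound of 0.34 or more. The inhibitory SMADs Smad7 and Smad6 were at 0.85 and -0.38, and the ligand Tgfb1 was at 0.67. Smad7 read 62.7 in Ndrg-1 cells and 34.8 in vector cells, the latter just above the floor. Smad6 read 36.7 in Ndrg-1 cells and 47.9 in vector cells. The other probe sets of Smad7 and Smad6 were under the floor in both arrays. Id1, Id2 and Id3, which encode inhibitors of DNA binding and are typical BMP targets, had log2 ratios of -0.47, 0.09 (second probe set -0.11) and -0.54. Mmp14, a membrane protease known to shed endoglin, was at -0.34, and its second probe set gave a bound of 0.09 or more.

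Adm was 3.05-fold higher in the Ndrg-1 clone. Its single probe set (1387219_at) gave 441 in Ndrg-1 cells and 145 in vector cells, both well above the floor (log2 ratio 1.61). The ratio held rank 28 from the top among the 8552 genes above the floor in both arrays. It exceeded the log2 ratio of Vegfa by 1.92, a difference that ranged from 1.67 to 1.93 over all settings tried. A single scaling factor cancels in this difference, so part of the narrow range is built in. The lowest value came from the 75th-percentile floor, where the vector signal of Adm was itself at the floor, and is a bound.

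The measured receptor and processing genes of adrenomedullin lay mostly below 0, some by little, while the Adm transcript was higher. Of 11 on the array, 6 were measured, 1 above 0 and 5 below, with a median log2 ratio of -0.45 that ranged from -0.65 to -0.04 over the 10 alternative settings, nearest to 0 when scaled to the hybridisation spikes. Ackr3, a chemokine receptor also described as a scavenger of adrenomedullin, was the 1 gene past 2-fold. It had 27.8 in Ndrg-1 cells, under the floor, and 81.7 in vector cells, at least 2.63-fold lower, and it passed the 75th-percentile floor in neither array. Ramp1, the receptor activity-modifying protein that forms the CGRP receptor, had 441 in Ndrg-1 cells and 784 in vector cells (log2 ratio -0.83). Pam, the enzyme that amidates adrenomedullin into its active form, had 370 in Ndrg-1 cells and 581 in vector cells (-0.65). Calcrl, the receptor for adrenomedullin, was under the floor with 12.9 in Ndrg-1 cells and 25.2 in vector cells. Of its adrenomedullin-specific partners, Ramp3 was under the floor in both arrays and Ramp2 read 26.3 in Ndrg-1 cells and 34.1 in vector cells.

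**Figure D3:**
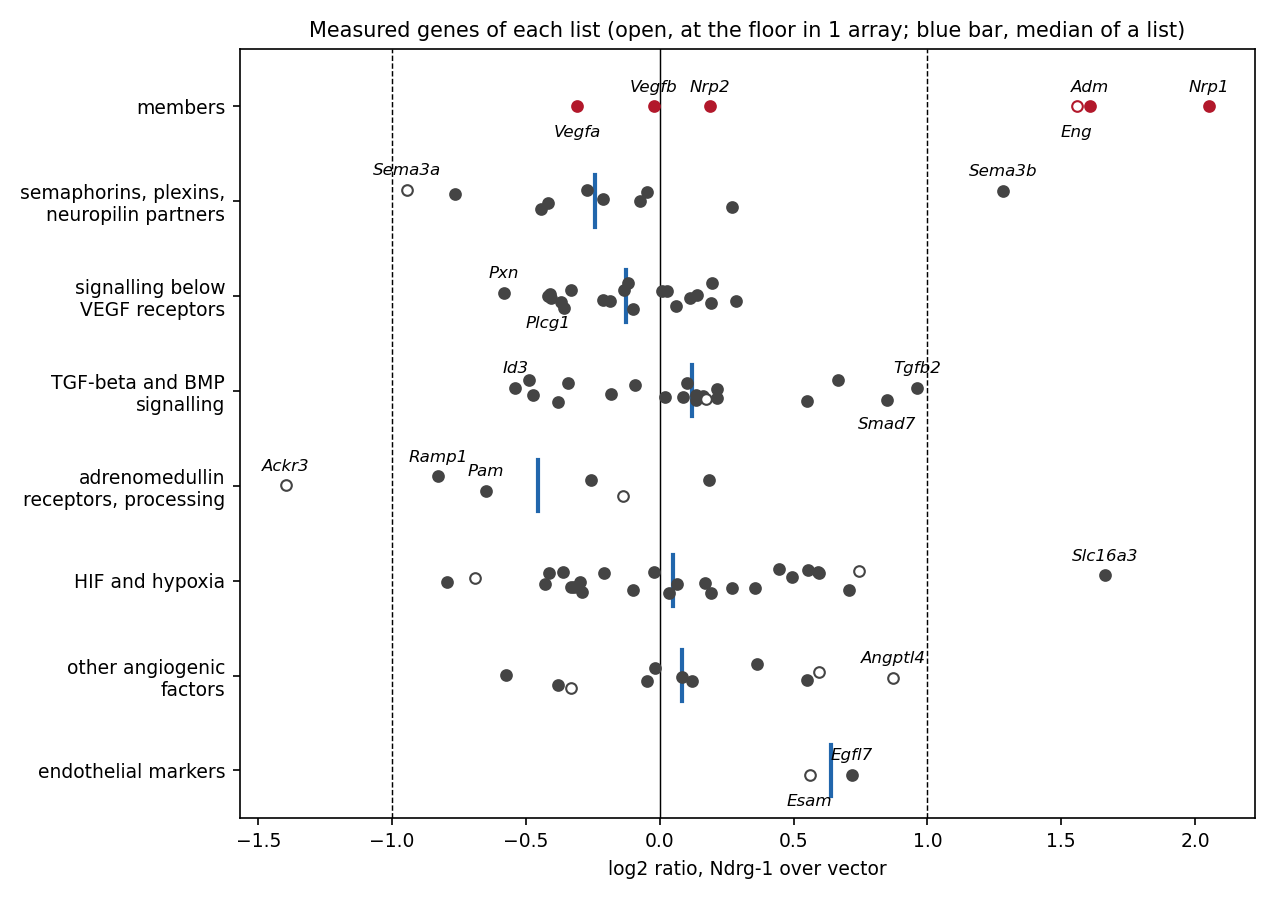
Log2 ratio of Ndrg-1 over vector for the measured members (red) and for the measured genes of 7 lists around them (dark grey); open circles are at the floor in 1 array and give a bound, blue bars are list medians and dashed lines mark 2-fold. Outside the members, Sema3b and Slc16a3 lie past 2-fold higher and Ackr3 past 2-fold lower.

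Adm and Vegfa are both known hypoxia-responsive genes, and genes of that kind lay on both sides of 0, with 1 past 2-fold. Of 31 HIF pathway and hypoxia-responsive genes on the array, 26 were measured, 14 above 0 and 12 below (median log2 ratio 0.05, or -0.15 scaled to the poly-A spikes and 0.58 scaled to the hybridisation spikes). Slc16a3, the exporter of lactate from glycolytic cells, was the 1 past 2-fold, with 142 in Ndrg-1 cells and 44.8 in vector cells (3.17-fold higher). It passed the 75th-percentile floor in neither array. The count of 1 became 7 scaled to the hybridisation spikes and 3 with a 25th-percentile floor. Over all genes the count went from 149 to 732 and to 444 in these settings. Hif1a, which encodes the oxygen-regulated subunit of the HIF transcription factor, was at 0.17. Epas1, which encodes its relative HIF-2 alpha, read 52.0 in Ndrg-1 cells and 8.56 in vector cells (a bound of 0.74 or more). Its second probe set was under the floor in both arrays and ordered them the other way, with 6.53 in Ndrg-1 cells and 22.9 in vector cells. The collagen prolyl hydroxylase P4ha1 (0.71) and the histone demethylase Kdm3a (0.60) lay above 0. The carbonic anhydrase Car9 (-0.79) lay below it. So did the glycolytic enzymes Ldha (-0.36) and Pgk1 (-0.30, second probe set -0.21), by less than 2 SD of the disagreement between probe sets (0.46).

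Other angiogenic factors gave no 2-fold difference in either direction among 11 measured of 26 on the array (6 above 0, 5 below, median log2 ratio 0.08, or -0.08 scaled to the poly-A spikes). Scaled to the hybridisation spikes, 2 were at least 2-fold higher (732 over all genes) and the median was 0.58. With a 25th-percentile floor 3 were higher (444 over all genes). Angptl4, a secreted lipase inhibitor, had 56.8 in Ndrg-1 cells and 13.8 in vector cells (a bound of 0.87 or more). Notch1 had a bound of 0.59 or more. The chemokine receptor Cxcr4 was at 0.36 (its dimmer probe sets both at 0.67) and Ccn1, a matricellular angiogenic protein, at 0.55, while Ccn2 was at -0.38 and the antiangiogenic Thbs2 at -0.57. The angiopoietins Angpt1 and Angpt2 and the growth factor Fgf2 were under the floor in both arrays.

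Eng, Kdr and Flt1 are also known as endothelial genes, so the markers of other cell types were read beside them. Of 14 other endothelial markers on the array, 12 were under the floor in both arrays, among them the defining genes Pecam1 (3.63 in Ndrg-1 cells and 12.2 in vector cells) and Vwf (2.61 in Ndrg-1 cells and 2.01 in vector cells). The 2 measured were Egfl7 (log2 ratio 0.72, second probe set 0.30) and Esam (0.56 or more), with a list median of 0.64 that was -0.43 with the floor at the 25th percentile. The summed signal of the endothelial list was 249 in Ndrg-1 cells and 182 in vector cells. Without Egfl7 it was 104 in Ndrg-1 cells and 93.5 in vector cells. Leukocyte markers (4 of 12 measured, median 0.15, summed signal 546 in Ndrg-1 cells and 553 in vector cells) ranged from Cd14 at -0.56 to Cd68 at 0.85, with the defining gene Ptprc under the floor in both. Fibroblast, smooth muscle and pericyte markers (5 of 12 measured, median -0.01, summed signal 2567 in Ndrg-1 cells and 1887 in vector cells) ranged from Cspg4 at -0.68 to Thy1 at 0.62. Thy1 carried that sum, and the other 11 summed to 426 in Ndrg-1 cells and 498 in vector cells. Without Cd14, the leukocyte list summed to 336 in Ndrg-1 cells and 244 in vector cells. Of 13 epithelial and prostate markers (median -0.04, summed signal 137 in Ndrg-1 cells and 141 in vector cells), only Krt8 (-0.26) and Tmprss2 (0.19 or more) were above the floor in an array, so markers such as Cdh1, Epcam, Krt18 and Hoxb13 were not detected in cells labelled as prostate cancer. In the setting used here these 4 marker lists held 0 genes past 2-fold. Scaled to the hybridisation spikes, the endothelial, leukocyte and fibroblast lists held 1 higher gene each, where all genes gave 732 higher. With a 25th-percentile floor they held 1 higher, 1 higher and 1 lower, and 1 lower gene in that order. All genes then gave 444 higher and 463 lower. The part of these cell types in the members' ratios was not tested.

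The genes with ratios closest to those of the 3 high members, over these 2 arrays, had varied known roles. Next above Nrp1 were Acss3, a short-chain acyl-CoA synthetase (log2 ratio 2.09), and the kinase gene Rps6ka6 (2.11), and next below it the interferon-induced Oasl (2.03) and the lipid droplet coat gene Plin1 (2.02). Next above Adm were Slc16a3 (1.66) and Marcksl1 (1.68), and next below it the transcription factor gene Hand2 (1.57) and the adhesion receptor gene Adgrg6 (1.56). For Eng, among the 309 genes that passed the floor in Ndrg-1 cells alone, the closest bounds were those of Ctnnd2 (1.56) and the lipase inhibitor gene G0s2 (1.64) above it and of Peg12 (1.54) and the junction gene Jam3 (1.49) below it. With 2 arrays such likeness is a single number per gene.

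The promoters of the 3 genes that stood at least 2-fold higher, and of Vegfa for comparison with a hypoxia-responsive ligand that did not, were read for short motifs. Each window is 300 bases from RefSeq (rat assembly GRCr8), with 250 bases before and 50 after the annotated start, written 5′ to 3′ on the gene's strand. All 9 members had a window, and Vegfa had a second one that is not shown. The motifs were the HIF core in the form ACGTG, the GC box GGGCGG, the AP-1 site TGANTCA and the TATA box TATAAA. None of them contains another, and each was searched on both strands. Other forms of the HIF core were not searched. Bases in capitals belong to a motif match.
Nrp1 (chr19:73256307-73256606, plus strand): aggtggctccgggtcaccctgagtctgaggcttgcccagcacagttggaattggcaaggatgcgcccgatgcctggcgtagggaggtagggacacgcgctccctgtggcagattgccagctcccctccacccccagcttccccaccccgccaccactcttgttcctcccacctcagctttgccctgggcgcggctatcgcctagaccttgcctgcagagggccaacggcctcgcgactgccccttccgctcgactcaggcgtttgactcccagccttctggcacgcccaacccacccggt
Eng (chr3:36332029-36332328, plus strand): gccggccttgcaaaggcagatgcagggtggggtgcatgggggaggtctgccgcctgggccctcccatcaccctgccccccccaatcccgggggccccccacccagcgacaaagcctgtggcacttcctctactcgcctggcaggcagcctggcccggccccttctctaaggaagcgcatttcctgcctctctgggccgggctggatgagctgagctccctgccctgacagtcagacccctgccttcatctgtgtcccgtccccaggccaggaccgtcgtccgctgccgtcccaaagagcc
Adm (chr1:174179950-174180249, plus strand): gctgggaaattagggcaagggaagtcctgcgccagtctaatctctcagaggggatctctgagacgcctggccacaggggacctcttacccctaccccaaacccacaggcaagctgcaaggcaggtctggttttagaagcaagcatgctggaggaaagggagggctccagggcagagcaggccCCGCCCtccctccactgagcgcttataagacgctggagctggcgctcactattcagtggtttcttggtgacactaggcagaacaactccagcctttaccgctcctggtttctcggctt
Vegfa (chr9:22452604-22452903, plus strand): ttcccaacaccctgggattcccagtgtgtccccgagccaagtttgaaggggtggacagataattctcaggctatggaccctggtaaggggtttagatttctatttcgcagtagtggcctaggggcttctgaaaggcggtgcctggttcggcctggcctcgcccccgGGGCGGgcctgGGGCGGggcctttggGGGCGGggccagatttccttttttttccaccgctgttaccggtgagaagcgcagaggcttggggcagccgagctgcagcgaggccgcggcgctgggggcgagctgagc

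The windows of Nrp1 and Eng held none of the 4 motifs in the forms searched. That of Adm held 1 GC box, which begins 68 bases before the start, and that of Vegfa held 3, which begin 84, 73 and 58 bases before it. Over all 10 windows of the members the GC box was found in 6, against 33.1% of 33469 rat promoter windows of the same length. The ACGTG form of the HIF core was found in 0 of the 10 (19.3% of all windows) and the AP-1 site in 0 (7.33%). The TATA box was found in 1, that of Flt1 (14.2%). A match is a description of letters, and a missing match says only that those letters are not in this window.

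**Figure D4:**
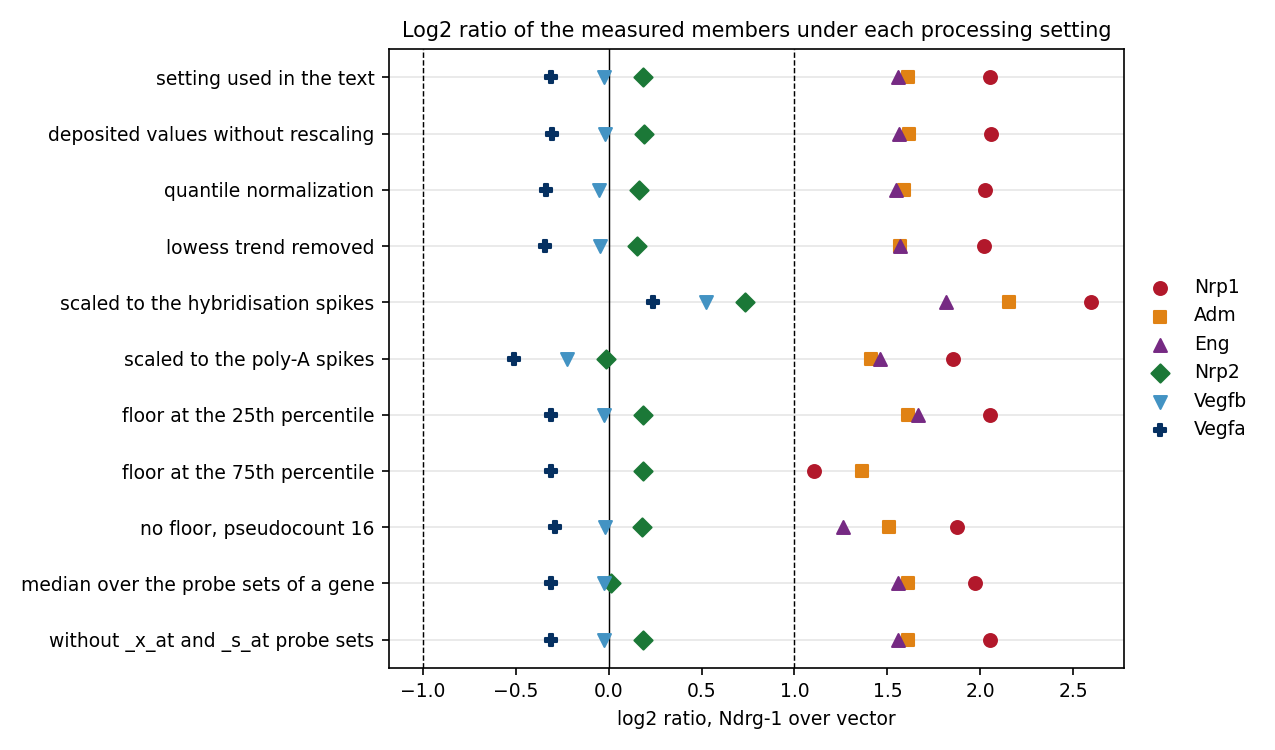
Log2 ratio of Ndrg-1 over vector (x) for the 6 measured members under the setting used in the text and under each of 10 alternatives (y); dashed lines mark 2-fold. Nrp1 and Adm stay above 2-fold in all 10, Eng does so in the 9 in which it is measured, and Nrp2, Vegfa and Vegfb stay within 2-fold wherever they are measured. Some alternatives cannot change Nrp1, Adm or Eng, or can only raise them, as the last section states.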

How the data were processed

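RNA from 2 transfected clones of AT6.1 cells was measured, 1 array per group. Each array's deposited column holds an intensity for every probe set on a linear scale. GCOS 1.3 made it, per the submitters' processing notes. How probes were summarised and scaled is not given in the sources used here, nor is a genome build. Trimmed by 2% at each end, both columns averaged 150.0, which shows that scaling had been applied before deposit.

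Gene names came from the platform annotation, updated through gene IDs to RefSeq (20758 of 20826 probe sets with 1 symbol matched). The vector array was rescaled by 0.0048 on the log2 scale, so that the median log2 ratio of the brighter probe sets was 0. Printed vector signals carry this factor. The floor, the choice of the brightest probe set and the count at 2-fold are as described with the results. With 1 array per group no test was possible, and the number of arrays limits the precision. The 11 gene lists and the members were chosen with earlier results of these data known. Named genes were all members, Ndrg1, up to 4 list genes per direction past 2-fold (otherwise the 2 largest ratios of a list) and the closest ratios to members past 2-fold. Further list genes were named outside this rule, for their role, after their values were seen. Gene symbols of a list without a single-gene probe set were not analysed here. The counting was tested on simulated data. Alternatives were 5 scalings (none, quantile, lowess, and 2 kinds of spike), a lower floor (25th percentile), a higher one (75th percentile), a pseudocount of 16, the median over probe sets, and leaving out probe sets ending in _x_at or _s_at. Software was pandas 2.3.3 with numpy 2.4.6, statsmodels 0.14.6 for lowess, and Python 3.11.15.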

Additional observations from a re-analysis of the deposited data

How the results depend on the processing

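Over the 10 alternatives, Nrp1 and Adm stayed at least 2-fold higher in all, and Eng in the 9 in which it was measured. Some alternatives could not change these genes. Adm and Eng have 1 probe set each, so the median over probe sets returned the same value. No probe set of the 3 genes ends in _x_at or _s_at. Nrp1 and Adm were above the main floor in both arrays, so a lower floor left them as they were. For Eng, whose vector signal was at the main floor, a lower floor could only raise the bound. Leaving out the rescaling (Nrp1 at 2.06, Adm at 1.61) and scaling to the hybridisation spikes moved ratios upward only. Neither could take these genes below 2-fold. With the floor at the 75th percentile Eng and Vegfb were under it in both arrays, Nrp1 was at 1.11 or more and Adm at 1.36 or more on the log2 scale, and 23 genes were at least 2-fold higher and 34 lower. A 25th-percentile floor gave 444 higher and 463 lower genes, and 1 member, Vegfc, was 2-fold lower. Scaling to the hybridisation spikes placed Nrp1 at 2.60, Adm at 2.15, Eng at 1.82 or more, Nrp2 at 0.73, Vegfb at 0.52 and Vegfa at 0.24, with 732 genes higher and 43 lower. Scaling to the poly-A spikes gave 232 lower genes. With a pseudocount of 16 Eng was at 1.26. Of 331 further values (list medians and counts, the count past 4-fold and 3 named list genes), 281 stayed within 1 SD between probe sets of a gene, or within 1.5 times for a count, and 50 moved further. No ratio past 2-fold changed sign. Only the adrenomedullin list kept the sign of its median in all 10 alternatives. Every other list median changed sign in 1 or more of them. That of the endothelial markers went from 0.64 to -0.43 with the 25th-percentile floor. A spike scaling moves the ratios of genes above the floor by 1 factor, and a lower floor adds dim genes to a list. Tek (10.4 in Ndrg-1 cells and 14.0 in vector cells) entered the endothelial list in this way. Beyond these processing steps, the cause of the shifts was not tested. No paired analysis was possible because there is 1 array per group. The dimmest members, Vegfc, Flt1 and Kdr, are limited by signal over background.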
